A study of Mus musculus with 12 samples.

Results

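The bodies of long genes were read here as tracks of replication fork direction: 1445 autosomal protein-coding genes of 100 to 300 kb in the mouse build mm10 (GENCODE M21 gene models), of 20807 autosomal protein-coding genes in that annotation. A gene was taken by its length alone, where it overlapped no other protein-coding gene on either strand (1831 genes had this length before overlap was considered), and 3 genes were left out by name. Of the members, 722 lie on the plus strand and 723 on the minus strand, and their median length is 146.8 kb. Each body was cut into 10 equal segments, numbered from the start to the end of transcription, with 50 kb of flank on each side in steps of 10 kb.

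The study used Okazaki fragment sequencing (OK-seq), in which the short DNA pieces of the lagging strand are isolated after an EdU pulse and sequenced with their strand. The 12 samples are mouse embryonic stem cells in the naive state or after the change to the formative state (EpiLCs), with 2 replicates for each of 3 genotypes: the control KO, which lacks KMT2C, the KMT2C/D double KO (dKO), and the KMT2C/D double catalytic dead (dCD) cells, in which the methyltransferase activity of both enzymes is lost. All 6 groups therefore lack KMT2C or its activity, and no wild-type sample is among them. The control and dKO cells come from 1 conditional line of mixed C57BL/6 and 129 background, in which tamoxifen-activated Cre removes KMT2D, and the dCD cells from a 129 line, so that genotype and strain cannot be told apart in the comparison of dCD with control. Each deposited track sums the 2 replicates of its condition. There was thus 1 library per condition, no error between replicates could be had, and no test across samples of 1 condition was possible. Intervals below are 95% counting intervals (Wilson for a share, Newcombe for a difference), which cover counting error only, since PCR copies of 1 molecule could not be told from separate molecules.

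A replication fork that moves the same way as RNA polymerase is co-directional with transcription, and one that moves against it meets the polymerase head-on. Forks start from origins, which in mammalian cells lie often near active, CpG-rich gene starts and seldom inside transcribed bodies, and 2 forks that leave the opposite ends of a gene meet inside it. Okazaki fragments on the Crick strand come from forks moving right, so the co-directional share of a gene is its Crick share of reads on the plus strand and its Watson share on the minus strand. A value of 50% means as many forks one way as the other.

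The members also share a feature of sequence that the choice did not use. In the direction of transcription their bodies hold more T than A, by 2.79% of bases on average over genes, and the difference is above 0 in all but 113 of the 1445. Within the tracks the strand of a read also followed the T minus A content of its own kilobase, relative to the kilobases around it, with a slope of 1.70 to 1.82 points of Crick share for each 1% of bases in the naive libraries and 1.21 to 1.42 points in the EpiLC libraries. Shares below are therefore given as counted and, called T−A-adjusted, after subtracting from each kilobase the part that this slope predicts. To what extent the subtracted part also holds true fork direction was not tested.

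How the base content looks on the letters is shown by 200 bases from an intron of the member with the highest co-directional share, Ehmt1, and of the member with the lowest, Cacng2. Each is the stretch nearest the middle of the body that lies outside exons and masked repeats and has the T minus A of its gene's body to within 0.5% of bases. Both are written 5′ to 3′ as transcribed, with every T in capitals.
Ehmt1 (mm10 chr2:24858971-24859170, minus strand): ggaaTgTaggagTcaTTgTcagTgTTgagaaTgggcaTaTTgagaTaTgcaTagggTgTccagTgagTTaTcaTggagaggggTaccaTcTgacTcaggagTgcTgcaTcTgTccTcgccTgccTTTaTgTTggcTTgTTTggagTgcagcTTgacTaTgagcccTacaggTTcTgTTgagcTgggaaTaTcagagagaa
Cacng2 (mm10 chr15:78056188-78056387, minus strand): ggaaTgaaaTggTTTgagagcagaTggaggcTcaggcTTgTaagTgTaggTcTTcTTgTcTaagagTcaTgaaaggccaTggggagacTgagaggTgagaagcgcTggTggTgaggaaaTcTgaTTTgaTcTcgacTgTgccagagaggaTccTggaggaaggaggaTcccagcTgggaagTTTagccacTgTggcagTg
The Ehmt1 stretch holds 59 T and 45 A, a difference of 7.0% of bases. The Cacng2 stretch holds 46 T and 51 A, a difference of -2.5%.

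Gene starts of the members differed in CpG content. The 250 bases before the start of Eefsec, the member with the largest change in fork direction along its body, and of Nr5a2, with the fewest CpG among the named members found in the promoter table, are given with each CpG in capitals. Both come from RefSeq (build GRCm38.p6, the same assembly as mm10), where 32 of the 49 named members looked up had a matching start.
Eefsec (chr6:88446540-88446789, minus strand): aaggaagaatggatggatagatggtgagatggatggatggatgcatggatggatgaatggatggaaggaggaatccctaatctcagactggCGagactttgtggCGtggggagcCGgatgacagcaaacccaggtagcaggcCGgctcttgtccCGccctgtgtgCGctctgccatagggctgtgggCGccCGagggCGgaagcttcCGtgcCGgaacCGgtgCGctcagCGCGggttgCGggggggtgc
Nr5a2 (chr1:136960449-136960698, minus strand): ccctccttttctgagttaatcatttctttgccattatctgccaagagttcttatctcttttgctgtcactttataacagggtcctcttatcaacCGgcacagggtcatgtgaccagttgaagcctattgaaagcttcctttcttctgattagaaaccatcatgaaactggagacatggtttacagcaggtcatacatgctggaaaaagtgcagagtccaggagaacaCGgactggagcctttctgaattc
The Eefsec stretch holds 16 CpG and the Nr5a2 stretch 2. Within 500 bases on either side of the start the counts are 76 and 5, beside a median of 61 over all members.

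Depth differed by state. The naive libraries held 3637464 to 4387433 reads once 126 bins of 1 kb were removed whose count was over 10 times the median, and the EpiLC libraries 11368666 to 13573782. Bodies of the members received a median of 252 to 302 reads in the naive libraries and 796 to 931 in the EpiLC libraries. Read density in the bodies was 0.996 to 1.03 times that of their flanks. Of the 1445 members, 1439 had at least 100 body reads in every library. The other 6 are Zfp808, Fam81b, Sdc2, Neto1, Slc22a27 and Gm5592, which entered the summed profiles and no count of genes. The amplitude of fork polarity over the genome, the SD of the Crick share over 50 kb bins with counting error removed, was 12.6, 13.3 and 16.5 points in naive control, dKO and dCD and 9.73, 10.6 and 12.3 points in the EpiLC libraries. Amplitude thus differed between the libraries in the order of the genotypes in both states, and differences between libraries below are to be read beside it.

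Fork direction turned along the body. In naive control the summed co-directional share was 48.8% at 40 to 50 kb before the start, 56.01% in the last 10 kb before it and 64.6% (95% interval 64.2 to 65.0) in segment 1 of the body. From there it declined with every segment to 46.4% in segment 10, reached its lowest value, 44.8%, in the 10 kb after the gene end, and came back to 52.8% at 40 to 50 kb after it. So forks ran mostly with transcription over the first part of these genes and, by a smaller margin, against it over the end. The T−A-adjusted shares of segments 1 and 10 were 57.5% and 44.2%, a smaller change in the same direction.

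The other 5 libraries had the same course. Segment 1 held 63.4% in naive dKO, 65.6% in naive dCD, 60.6% in EpiLC control, 62.0% in EpiLC dKO and 62.9% in EpiLC dCD. In segment 10 the values were 46.5%, 45.8%, 46.7%, 46.3% and 45.8% in the same order, closer to each other than those of segment 1. The share of segments 1 to 3 minus that of segments 8 to 10, called the decline below, came to 15.2 points (14.9 to 15.6) in naive control, 14.4 (13.98 to 14.7) in naive dKO and 16.8 (16.4 to 17.2) in naive dCD. In EpiLCs it was 11.9 (11.6 to 12.1) in control, 13.6 (13.4 to 13.8) in dKO and 14.6 (14.4 to 14.8) in dCD. T−A-adjusted declines lay between 9.36 and 12.4 points. The decline was above 0 on each of the 19 autosomes in every library, as counted and adjusted, with chromosome values of 10.2 to 20.1 points as counted.

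**Figure D1:**
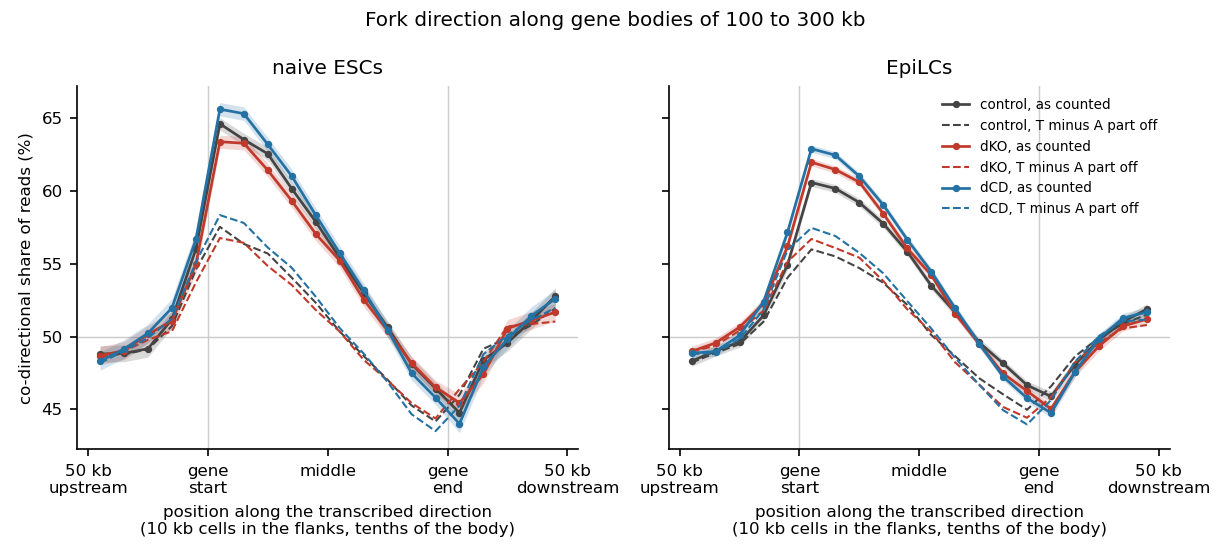
Co-directional share of reads (y axis, %) summed over 1445 members along the transcribed direction (x axis: 5 cells of 10 kb before the start, 10 segments of the body, 5 cells of 10 kb after the end), in naive ESCs (left) and EpiLCs (right); solid lines with points are reads as counted with 95% Wilson bands, dashed lines are T−A-adjusted. All 6 libraries peak in segment 1, at 60.6 to 65.6% as counted, and as counted are lowest in the 10 kb after the gene end, at 44.0 to 45.9%.

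The summed share crossed 50% well inside the body. As counted, the crossing lay at 77.5% of the length in naive control and 73.0% in EpiLC control, or on average 36.4 and 43.6 kb before the gene end. Adjusted, it lay at 57.1% and 55.7% of the length, near the middle of the body. Among the 6 libraries the crossing ranged from 72.6 to 77.5% as counted and from 55.7 to 58.3% adjusted, so the adjustment moved the turn by more than state or genotype did.

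At the start itself the share was higher in each step of the upstream flank nearer to the gene and stepped up at the gene boundary. Segment 1 minus the 10 kb before the start was 8.61, 8.43 and 8.95 points in naive control, dKO and dCD, and 5.66, 5.79 and 5.75 points in the EpiLC libraries. T minus A stepped at the same place, from 0.598% of bases in the last 10 kb before the start to 3.61% in segment 1, and was 1.45% in segment 10 and -0.422% just after the end. The adjusted step was 2.94, 3.05 and 3.24 points in the naive and 1.95, 1.57 and 1.52 points in the EpiLC libraries. The larger part of the step as counted thus went with the base content.

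Over whole bodies the bias towards co-direction was small. The body share was 56.3% (56.1 to 56.4) in naive control, 55.7% (55.6 to 55.9) in naive dKO, 56.6% (56.5 to 56.8) in naive dCD, 54.3% (54.2 to 54.4) in EpiLC control, 54.8% (54.7 to 54.8) in EpiLC dKO and 55.1% (55.0 to 55.2) in EpiLC dCD. The T−A-adjusted body share was between 50.9 and 51.4% in all 6. As counted, each of the 19 autosomes was above 50% in every library, and adjusted, 15 or 16 of the 19 were. Chromosomes 11 and 18 had the lowest pair of body shares in every library, at 53.95 and 53.0% in naive control.

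Single genes spread far more widely than these means. In naive control the body share ran from 22.9 to 80.8% over 1439 members, with an SD of 11.7 points, whereas counting error alone gives an SD of 2.81 points. The SD was 12.7 points in naive dKO and 16.04 in naive dCD, against 8.96, 9.94 and 11.5 points in EpiLC control, dKO and dCD. The spread followed the order of the genome-wide amplitudes given above, and the means of the 6 libraries differed by far less than the genes within any of them. Genes held their place between libraries: Pearson's r of the body share over the 1439 genes was 0.849 to 0.942 across the 15 pairs of libraries and 0.784 to 0.921 adjusted. These are correlations across genes that share base content and neighbours, not across independent samples.

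**Figure D2:**
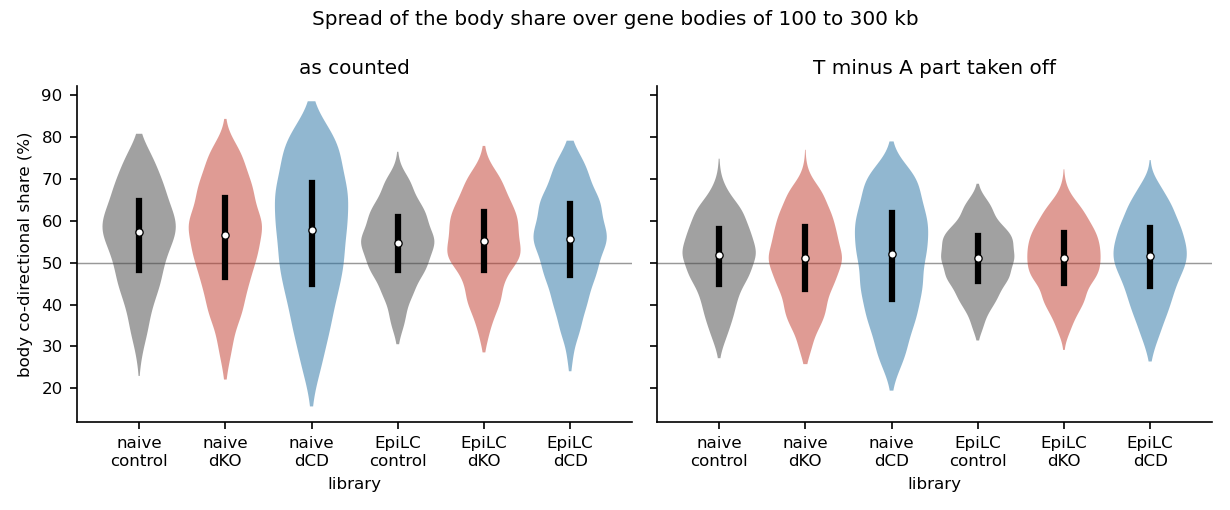
Body co-directional share (y axis, %) of 1439 members in each library (x axis), as counted (left) and T−A-adjusted (right); violins show the distribution over genes, black bars the quartiles and white points the medians. Medians lie at 54.6 to 57.8% as counted and 51.1 to 52.1% adjusted, and the naive dCD violin is the widest.

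A body share of at least 60% was found in 578 members in naive control, where 41% of the 3277 genes tested had one, and a share of at most 40% in 145 members (9.22% of the genes tested). The genes tested are all autosomal protein-coding genes without overlap that had 100 body reads in every library, 1439 members, 1406 shorter genes and 432 longer ones. In EpiLC control 407 members were at 60% or more (28.3% of the genes tested) and 98 at 40% or less (6.1%). For the mutants the counts were 558 and 191 in naive dKO (39.4 and 11.9% of the genes tested), 642 and 256 in naive dCD (45.5 and 16.5%), 472 and 122 in EpiLC dKO (32.4 and 7.69%) and 516 and 169 in EpiLC dCD (36.2 and 10.5%). The members' own percentages, 40.2 and 10.1% in naive control for example, were near that background in every library. This closeness depended on the read minimum: with 200 reads, both directions together, the members were 4.85 to 6.49 percentage points above the genes tested in the 6 libraries, and with 50 reads the difference was -3.41 to -0.831 points.

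Above 50% in naive control were 1018 members (71.4% of the genes tested), and 973 in naive dKO (68%), 937 in naive dCD (67%), 986 in EpiLC control (69.3%), 1004 in EpiLC dKO (68.9%) and 971 in EpiLC dCD (67.9%). With the adjustment fewer genes were at 60% or more and more at 40% or less. T−A-adjusted shares of at least 60% were held by 263 members in naive control (background 19.8%), 310 in naive dKO (22.7%) and 430 in naive dCD (30.8%), and by 166, 209 and 280 in EpiLC control, dKO and dCD (12.8, 15.4 and 20%). Adjusted shares of at most 40% were held by 196, 243 and 324 members in the naive libraries (12.8, 15.7 and 20.8%) and by 118, 149 and 210 in the EpiLC libraries (8.09, 9.8 and 13.7%). At the minimum of 100 reads these counts too were close to the background.

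Across all 6 libraries 306 members stayed at 60% or more (background 21%) and 65 at 40% or less (background 3.94%). Above 50% in all 6 were 767 members (background 53.5%), and below 50% in all 6 were 264 (background 17.1%). At the read minimum used, members stood further from the background in how the share ran along the body. The decline was above 0 in 1218 members in naive control (81.7% of the genes tested), 1187 in naive dKO (78.8%), 1209 in naive dCD (80.7%), 1244 in EpiLC control (82.3%), 1283 in EpiLC dKO (84.5%) and 1291 in EpiLC dCD (85.8%). The members' own percentages were 84.6, 82.5, 84, 86.4, 89.2 and 89.7% in the same order. In all 6 libraries the decline was above 0 in 924 members, 64.2% of those tested against 55.1% of the genes tested. A change of sign, co-directional first and head-on last in all 6 libraries, was seen in 221 members (background 12.8%), and the opposite order in 4 (background 0.183%). Both ends were co-directional in all 6 libraries in 340 members (background 24.1%) and head-on in 119 (background 6.84%). The background holds 1406 shorter genes. Whether these gaps along the body depend on the read minimum, as those of the body share did, was not tested.

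Length went with the course of the profile more than with its level. In naive control the decline was 13.8 points for the 755 members of 100 to 150 kb, 15.3 for the 357 of 150 to 200 kb and 16.8 for the 333 of 200 to 300 kb. In EpiLC control the 3 values were 9.71, 11.9 and 14.3 points. This order held in all 6 libraries, as counted and adjusted. The body share ran the other way in all 6, from 57.15 to 55.1% in naive control. Segment 1 stood at 64.4, 64.8 and 64.7% in the 3 length classes of naive control, and segment 10 at 47.8, 46.4 and 44.9%. In the other libraries the classes also parted in segment 1, at 62.8, 62.3 and 64.9% in naive dKO and 62.2, 62.2 and 64.2% in EpiLC dCD, and the longest class was above the shortest there in all 6. The crossing of 50% moved from 103.6 kb after the start in the shortest class to 171.1 kb in the longest in naive control, and from 103.6 to 161.1 kb in EpiLC control. Genes of 50 to 100 kb chosen by the same rule (1879 genes) had a decline of 9.94 points in naive control and 6.35 in EpiLC control, and the 433 genes over 300 kb had 15.2 and 12.3.

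CpG content at the start separated the members more clearly. Members were cut into quartiles by the number of CpG within 500 bases of the start, with medians of 16, 49, 75 and 106. From the lowest to the highest quartile the decline was 9.71, 13.4, 17.6 and 19.5 points in naive control and 7.97, 10.6, 13.7 and 14.7 in EpiLC control. The rise over the quartiles was seen in all 6 libraries. Adjusted, it was still present in all 6, from 7.13 to 14.4 points in naive control and from 6.42 to 11.5 in EpiLC control. As counted, most of the rise lay in segment 1, at 59.3% in the lowest and 68.6% in the highest quartile of naive control, against 47.4 and 44.8% in segment 10. Adjusted, both ends of the body parted in naive control. Segments 1 to 3 stood at 54.0% in the lowest and 58.0% in the highest quartile, and segments 8 to 10 at 46.9 and 43.6%. Mean length was alike in the 4 quartiles, at 157.9 to 166.1 kb, whereas median T minus A rose from 1.94 to 3.56% of bases. Expression, which often goes with CpG at the start, was not measured in these files.

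Base content of the body went with the level of the share. In quartiles of T minus A, with medians of 0.51, 2.28, 3.51 and 4.91% of bases, the body share was 44.8, 55.0, 59.9 and 65.4% in naive control and 46.1, 53.0, 57.1 and 60.95% in EpiLC control. The adjustment narrowed these gaps and did not remove them, since the 4 values were then 44.4, 50.9, 53.4 and 56.04% in naive control and 45.6, 50.3, 52.8 and 54.8% in EpiLC control. Both orders held in all 6 libraries. The 113 members with T minus A at or below 0 had a body share of 38.6% in naive control and 41.4% in EpiLC control, and were head-on already in segment 1, at 45.6 and 47.1%. Over the 1439 genes of naive control, Spearman's correlation between T minus A and body share was 0.65 as counted and 0.47 adjusted, while as counted the correlation with GC content was -0.07 and with length -0.07. These coefficients describe genes and carry no test.

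**Figure D3:**
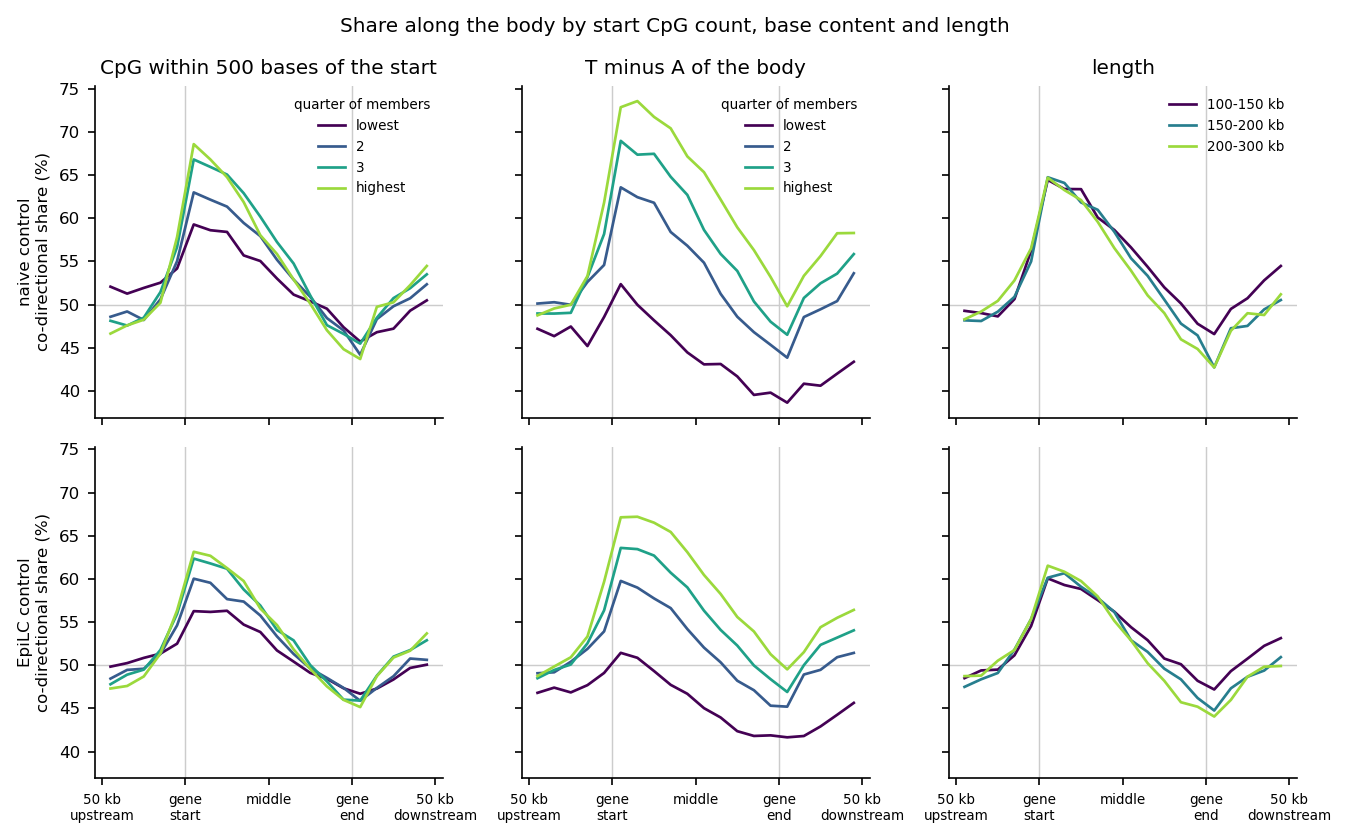
Co-directional share (y axis, %) along the body and its 50 kb flanks (x axis: body segments and 10 kb cells) in naive control (top) and EpiLC control (bottom), for quartiles of the members by CpG count at the start (left) and by T minus A of the body (middle), and for 3 length classes (right), as counted. CpG quartiles part mainly in the first segments and close up at the end, T minus A quartiles are apart along the whole body, and length classes differ more in segment 10 than in segment 1.

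Members with no near neighbour had the higher body share in all 6 libraries. The 358 members with no other protein-coding gene within 50 kb of either end had a body share of 57.2% and a decline of 13.4 points in naive control, against 55.96% and 15.8 points for the 1087 members with a neighbour. They crossed 50% after 85.6% of the body in naive control, against 75.4% for members with a neighbour. In EpiLC control the shares and declines were 55.3% and 11.5 points against 53.99% and 11.99 points. Plus-strand and minus-strand members gave 56.3 and 56.2% in naive control and 54.3% each in EpiLC control.

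The highest mean share over the 6 libraries belonged to Ehmt1, which encodes a histone H3 lysine 9 methyltransferase (chr2:24789928-24919614, minus strand). Its body share was 79.7, 84.4 and 87.5% in naive control, dKO and dCD and 73.7, 73.7 and 77.6% in the EpiLC libraries. It kept nearly the same level from end to end, 78.5% in segments 1 to 3 and 77.7% in segments 8 to 10 as the mean of the 6 libraries, and its T−A-adjusted mean body share was 67.1%. Adgre1, the macrophage adhesion receptor known as F4/80, had 77.3, 77.3 and 84.0% in the naive and 76.5, 76.7 and 79.1% in the EpiLC libraries. Its start holds 6 CpG, so the member with the second highest share has a CpG-poor start. Epb41l2 (a membrane skeleton protein), Helz (an RNA helicase) and Herc2 (a ubiquitin ligase) were also among the highest, with means of 77.9, 77.6 and 77.2%. For all 5 of these genes every library was above 70%, naive dCD was the highest, and T minus A was between 5.6 and 8.7% of bases.

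At the low end stood Cacng2, which encodes stargazin, an auxiliary subunit of AMPA receptors (chr15:77991748-78120028, minus strand). Its share was 26.3, 23.7 and 18% in naive control, dKO and dCD and 34.6, 29.4 and 24.05% in the EpiLC libraries, the lowest mean of all members. C1qtnf7, a secreted C1q and TNF related protein, had 26.9, 22.1 and 15.6% in the naive and 31.3, 29.1 and 34.5% in the EpiLC libraries. Slc7a14 (an amino acid transporter family member), Atp10b (a lipid flippase), Itga11 (a collagen-binding integrin) and Vit (a matrix protein) had means of 26.8, 26.9, 27.1 and 28.1%. All 6 low genes were below 35% in every library and had T minus A below 0. Their adjusted means were 29.5 to 31.6%, still far from 50%.

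Some members turned sharply within the body. Eefsec, the elongation factor for selenocysteine (chr6:88257334-88446539, minus strand), held 80.1, 73.5 and 77.8% in segments 1 to 3 in naive control, dKO and dCD and 75.6, 71.4 and 67.7% in the EpiLC libraries. In segments 8 to 10 the shares were 34.0, 24.2 and 26.1% and then 32.2, 31.9 and 32.2%. Its body share, 50.5 to 61.0%, hides this turn. Rptor, the mTORC1 subunit Raptor, went from a mean of 74.5 to 32.8%, and Dlg1, a scaffold of cell junctions and synapses, from 68.6 to 27.6%. The adjusted means of segments 1 to 3 and 8 to 10 were still 65.7 and 32.1% in Eefsec, 64.3 and 32.3% in Rptor and 56.5 and 29.6% in Dlg1.

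The opposite turn was rare. Rbpj, the DNA-binding factor of Notch signalling, went from 33.1, 33.0 and 35.2% to 71.7, 70.7 and 82.1% in the naive libraries and from 41.0, 35.1 and 35.9% to 67.8, 70.4 and 69.2% in the EpiLC libraries. Mapt, which encodes tau, went from a mean of 32.3 to 58.9% and Lifr, the receptor of the cytokine LIF that keeps naive cells self-renewing, from 42.5 to 67.1%. Both rose in every library and crossed 50% in the naive ones, but not in all EpiLC libraries. The last segments of Mapt stood at 49.0% in EpiLC control and 47.1% in EpiLC dCD. The first segments of Lifr stood at 53.3% in EpiLC dKO and 50.5% in EpiLC dCD. The flanks of these 3 followed their nearer end: the 50 kb before the start stood at 35.6% in Rbpj, 27.8% in Mapt and 39.9% in Lifr, and the 50 kb after the end at 68.7, 62.8 and 59.7%.

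At the limits of length the nearest genes were as follows. Map2k4, a kinase upstream of JNK and at 100055 bases the shortest member, had 72.5% in naive control and 66.7% in EpiLC control, and Prep, a prolyl endopeptidase of 99996 bases just outside, had 76.7 and 61.3%. Jazf1, a zinc finger protein and at 299835 bases the longest member, had 44.5 and 49.7%, and Kcnq3, a potassium channel of 300256 bases just outside, had 38.7 and 46.3%.

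Grouped by role, chromatin regulators lay highest among the larger lists. Their 34 members had a median mean share of 62.2%, with 22 at 60% or more and none at 40% or less, beside a median of 55.96% for all members and 56.1% for all genes tested, of which 37.7% had a mean share of 60% or more and 9.31% one of 40% or less. Ehmt1, Chd2 (a chromatin remodeller, 77.0%), Jarid2 (a cofactor of Polycomb repressive complex 2, 75.5%) and Tbl1xr1 (a corepressor subunit, 75.5%) led them, the last 3 named after their values were seen, and Chd6 was lowest at 43.9%. Median T minus A of the list was 4.5% of bases against 2.9% over all members, and the list's adjusted median was 55.8% against 51.5%. The 8 genes of genome maintenance and cell cycle had a median of 63.4%, with Cdc14a, a cell cycle phosphatase, highest at 69.8% and Nipbl, the cohesin loader, lowest at 41.5%. Their median start CpG count, 95.5, was the highest of the lists.

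Lists of neurotransmitter receptors, ion channels and matrix genes lay lower, and their counts at 40% or less stand beside the same 9.31% of all genes tested. The 11 neurotransmitter receptors had a median of 51.7%, from Chrna7 (a nicotinic receptor subunit) at 64.5% to Adra1b (an adrenergic receptor) at 29.1%. Cell adhesion and matrix genes (51 members) had 53.1%, with 10 at 40% or less, and spanned Col6a4 (a collagen VI chain) at 75.9% and Itga11 at 27.1%. The 34 genes of the ion channel list, taken by the start of their symbols and so including Itprid1, which is no channel, had 53.7%, with 9 at 40% or less, from Cacna1b (the N-type calcium channel) at 75.5% to Cacng2. Median T minus A in these 3 lists was 0.79, 1.71 and 1.36% of bases, and their adjusted medians were 49.4, 50 and 51.3%. The decline had a median of 6.81, 9.21 and 10.4 points in them, beside 12.5 points over all members.

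Other lists stood between. The medians were 53.9% for 21 receptor tyrosine kinases and phosphatases (Ptprj highest at 74.2%, Met lowest at 35.2%) and 58.4% for 49 transcription factors (Prdm2 at 71.9%, Rorb at 29.6%). Kinases, phosphodiesterases and calcium signalling genes (51 members) had 58.4% (Plcg2 at 73.1%, Rgs7bp at 33.8%), and solute carriers and transporters (49 of 50 with enough reads) 58.6% (Atp13a4 at 76.1%, Slc7a14 at 26.8%). Each list spanned far more between its highest and lowest gene than the list medians lay apart. No list was tested against the others.

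Mutant and control libraries were compared within each state. In naive ESCs the body share of dKO minus control was -0.513 points (-0.718 to -0.307) and of dCD minus control 0.352 points (0.143 to 0.561). In EpiLCs the differences were 0.449 points (0.329 to 0.569) for dKO and 0.810 points (0.691 to 0.928) for dCD. All 4 intervals leave out 0 and all 4 differences are under 1 point, beside SDs over genes of 8.96 to 16.04 points. The differences of single genes had SDs of 5.30 and 7.24 points in naive dKO and dCD and 3.66 and 4.47 in EpiLC dKO and dCD. These are more than counting error gives, and the intervals do not cover that spread. They rest on 1 library a side, so the difference between replicates, which these tracks do not hold, cannot be set against them. The 2 comparisons within a state share their control library. Over the 19 autosomes the difference was above 0 on 3, 15, 15 and 18 chromosomes in the order given.

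The adjustment changed these small differences. T−A-adjusted, they were -0.259 and 0.251 points in naive dKO and dCD, -0.021 in EpiLC dKO, where the sign turned, and 0.275 in EpiLC dCD. With the deviation from 50% divided by each library's amplitude relative to its control, naive dCD minus control was -1.20 points and EpiLC dCD minus control -0.246 points, both of the opposite sign. The part of the libraries' amplitude in the mutant differences was not tested further.

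Within the body, as counted, the EpiLC mutants differed from control most in segments 1 to 3. The difference was not confined to the body. In the last 10 kb before the start it was 1.27 points in dKO and 2.24 in dCD. T−A-adjusted, it was 1.09 and 1.90 points there, more than in any segment. In dKO the next 2 steps upstream, at 0.769 and 0.922 points adjusted, were also above every segment. In EpiLCs segment 1 was 1.39 points higher in dKO (1.03 to 1.76) and 2.32 points higher in dCD (1.96 to 2.68), and in segment 9 the differences were -0.689 points in dKO (-1.07 to -0.308) and -0.910 in dCD (-1.29 to -0.532). The decline along the body was thus steeper in the EpiLC mutants, by 1.77 points in dKO (1.46 to 2.07) and 2.76 points in dCD (2.46 to 3.07). T−A-adjusted, these were 1.29 and 2.16 points. The adjusted differences of EpiLC dKO were 0.714, 0.574 and 0.718 points in segments 1 to 3 and -0.436, -0.867 and -0.549 in segments 8 to 10. In dCD they were 1.478 and 1.401 points in segments 1 and 2 and -0.452, -1.09 and -1.01 in segments 8 to 10. In naive ESCs the same measure was -0.864 points in dKO (-1.39 to -0.342) and 1.62 points in dCD (1.09 to 2.15). As ratios to control, the decline was 0.943 and 1.11 in naive dKO and dCD and 1.15 and 1.23 in the EpiLC mutants, and the genome-wide amplitude was 1.05, 1.31, 1.09 and 1.26.

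**Figure D4:**
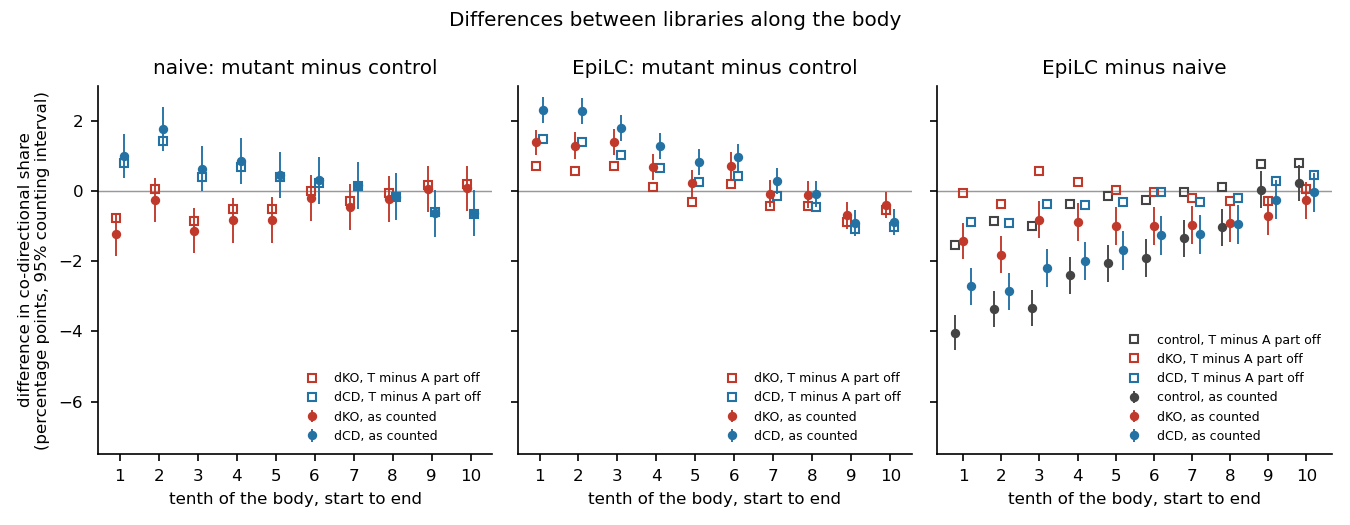
Difference in co-directional share between libraries (y axis, percentage points) for each segment of the body (x axis), for mutant minus control in naive ESCs (left) and EpiLCs (middle) and for EpiLC minus naive by genotype (right); filled points are reads as counted with 95% Newcombe intervals and open squares are T−A-adjusted. As counted, both EpiLC mutants lie above control in segments 1 to 6 and below it in segments 8 to 10, and the EpiLC minus naive differences are lowest in segments 1 and 2; adjusted, EpiLC dKO is at -0.304 points in segment 5.

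CpG at the start went with the size of the EpiLC difference in dCD, and also with the share in control. From the fewest to the most CpG, segments 1 to 3 stood at 56.2, 59.1, 61.8 and 62.4% in EpiLC control. In EpiLC dCD they stood at 57.6, 61.0, 64.0 and 65.5%. The genome-wide amplitude of EpiLC dCD was 1.26 times that of EpiLC control, and its part in this order was not tested. In segments 1 to 3 dCD minus control was 1.31 points (0.85 to 1.76) in the quartile with the fewest CpG, then 1.89 and 2.18 points, and 3.10 points (2.69 to 3.51) in the quartile with the most. For dKO the 4 values were 1.10, 1.33, 1.45 and 1.54 points, whose intervals overlap. T−A-adjusted, they were 0.82 to 2.02 points for dCD and 0.63 to 0.70 for dKO, without the order over the quartiles in dKO. In naive ESCs dKO minus control lay between -1.08 and -0.62 points in the 4 quartiles, and dCD minus control was 0.29, 1.08, 1.64 and 1.42 points.

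At the depths of these libraries, fewer members moved by 10 points in the EpiLC mutants than in the shallower naive ones. In EpiLC dKO 11 members were at least 10 points higher than control (0.885% of the genes tested were) and 6 at least 10 points lower (0.793%). In EpiLC dCD the counts were 15 (background 1.74%) and 18 (1.31%). Naive dKO had 38 higher (3.63%) and 56 lower (5.46%), and naive dCD 114 higher (10.1%) and 121 lower (8.64%). With every library thinned to the smallest, both directions together, the counts were 81 in EpiLC dKO (17 before), 113 in EpiLC dCD (33), 110 in naive dKO (94) and 245 in naive dCD (235), beside 6.72, 10.3, 9.51 and 17.9% of the genes tested at that depth. As deposited, the members' percentages were below the background in all 8 counts, which depended on the read minimum: with 200 reads in every library, both directions together, they were above it in all 4 comparisons, at 4.65 against 3.96% in naive dKO, 14.51 against 12.99% in naive dCD, 0.651 against 0.455% in EpiLC dKO and 2.14 against 1.69% in EpiLC dCD. Counting error alone gives a gene's difference an SD of 4.08 to 4.12 points in the naive comparisons and 2.38 to 2.40 in the EpiLC ones, so that naive counts hold more genes near the limit of what these depths resolve.

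Named by the size of their difference, the largest gene-level changes were seen in the naive state. Alpk1, a kinase that senses bacterial sugars, had 25% in naive dCD and 53.6% in naive control, a difference of -28.6 points (-37.7 to -18.5), and 40.8, 42.4 and 35.3% in the EpiLC libraries. Pign, an enzyme of GPI anchor synthesis, had 79.1% in naive dCD against 55.98% (23.1 points, 14.1 to 31.5). In naive dKO, Pla2g4a (cytosolic phospholipase A2) was at 78.0% against 58.6%, and Rnf216 (a ubiquitin ligase) at 31.3% against 50.2%. Rnf216 was also lower in dCD, at 30.4%, and in EpiLCs it had 40.2% in control, 31.5% in dKO and 33.8% in dCD. Both mutants of a state share its control here, and the gene was chosen for this difference in naive dKO.

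In EpiLCs the extremes were smaller. Hs2st1, a heparan sulfate sulfotransferase, had 66.0% in dCD and 50.7% in control (15.3 points, 10.6 to 19.9), and 57.9, 62.4 and 72.3% in naive control, dKO and dCD, the same order of genotypes. Galnt10, an enzyme of mucin-type O-glycosylation, had 32.8% in EpiLC dCD against 47.9%, and 34.5% against 51.9% in the naive state. For dKO, Tacc1 (a centrosomal coiled-coil protein) had 64.3% against 50.1%, and Chd6 (a chromatin remodeller) 42.9% against 57.2%. Chd6 had 46.1, 35.2 and 36.9% in naive control, dKO and dCD and 57.2, 42.9 and 45.0% in EpiLCs. The adjustment moved Pign most among these 8 genes, to a difference of 21.1 points.

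As counted, the body share was lower in EpiLCs in each genotype. EpiLC minus naive of the body share was -1.94 points (-2.11 to -1.78) in control, -0.980 (-1.15 to -0.810) in dKO and -1.48 (-1.66 to -1.31) in dCD. All 3 naive tracks, at 55.7 to 56.6%, lay above all 3 EpiLC tracks, at 54.3 to 55.1%, and the exact two-sided permutation test of 3 against 3 gave p = 0.1, the smallest value it can give. T−A-adjusted, the differences were -0.265, -0.027 and -0.241 points, the ranges of the states overlapped and the exact permutation p was 0.4. That test does not use the genotype. Taken within genotype, all 3 differences were below 0 as counted and adjusted, and an exact sign-flip permutation over the 3 pairs gave p = 0.25 for both, the smallest value that 3 pairs allow. With the deviation from 50% divided by the amplitude of each library, the difference turned to 0.196 points in dKO and 0.284 in dCD, and in control it stayed below 0. The slope of strand on T minus A, given above, was higher in all 3 naive libraries than in all 3 EpiLC libraries.

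By position within the body the difference, as counted, was largest in segments 1 and 2. In control segment 1 was at 60.6% in EpiLCs and 64.6% in naive ESCs, a difference of -4.04 points (-4.53 to -3.54), which shrank to 0.227 points (-0.293 to 0.746) in segment 10. Segment 1 differed by -1.41 points in dKO and -2.72 in dCD. Adjusted, the 3 values for segment 1 were -1.55, -0.065 and -0.881 points. In the last 10 kb before the start the genotypes differed in sign. EpiLC minus naive was -1.09 points in control (-1.75 to -0.428), 1.23 in dKO (0.541 to 1.92) and 0.484 in dCD (-0.214 to 1.18). Adjusted, these were -0.558, 1.42 and 0.839 points, in dKO larger in size than in any segment. The decline was 11.9 to 14.6 points in the EpiLC tracks and 14.4 to 16.8 in the naive tracks, with an exact permutation p of 0.2 (0.5 adjusted). Within genotype it was smaller in EpiLCs in all 3 pairs, with differences of -3.36 points in control, -0.729 in dKO and -2.21 in dCD, with an exact sign-flip permutation p of 0.25. Adjusted, the pairs were -1.72, 0.205 and -0.924 points (p = 0.5 by the same exact test). In control the EpiLC decline was 0.779 of the naive one, and its genome-wide amplitude was 0.772 of that in naive control. The same 2 ratios were 0.949 and 0.802 in dKO and 0.869 and 0.743 in dCD, where the decline was the less reduced of the pair.

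Members at least 10 points lower in EpiLCs numbered 126 in control (11% of the genes tested), 52 in dKO (6.04%) and 186 in dCD (14.8%), and those at least 10 points higher 44 (3.42%), 43 (3.23%) and 124 (8.03%). These are below the background in 5 of 6 counts and above it for the higher genes of dCD, at 8.62% of members. At equal depth, both directions together, the counts were 203 in control (170 before), 151 in dKO (95) and 349 in dCD (310), beside 16.7, 12.2 and 24.6% of the genes tested. With 200 reads the members were above the background in all 3 genotypes, at 10.4 against 8.05%, 6.60 against 5.65% and 20.5 against 17.4%, both directions together.

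Genes that changed between states did so in all 3 genotypes in the cases named for their mean. Col4a4, a chain of basement membrane collagen IV, had 71.3, 66.7 and 74.4% in naive control, dKO and dCD and 46.2, 45.6 and 56.1% in the EpiLC libraries, a mean difference of -21.5 points. Nr5a2, a nuclear receptor active in pluripotent cells whose CpG-poor start is printed above, had 55.8, 59.1 and 56.2% and then 42.5, 39.4 and 33.2%, a mean difference of -18.6 points. In Nr5a2 both ends were lower in EpiLCs: segments 1 to 3 had 64.0, 66.7 and 66.2% in the naive and 37.0, 40.4 and 38.5% in the EpiLC libraries, and segments 8 to 10 had 47.6, 55.9 and 38.9% and then 42.3, 35.7 and 29.1%. Naive and EpiLC values did not overlap in either gene, which their choice by this difference makes likely.

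In the other direction, Zcchc7, a zinc finger protein of nuclear RNA decay, went from 37.8, 39.4 and 29.9% to 52.9, 52.5 and 54.7%, a mean of 17.7 points. Pcnx2, of the pecanex family of membrane proteins, went from 41.4, 46.3 and 44.1% to 56.5, 57.03 and 64.2%, a mean of 15.3 points. Within single genotypes the extremes were Klhl14 (a Kelch family protein, 19.2 points in control), P3h2 (a collagen prolyl hydroxylase, 18.3 points in dKO) and Lin28b (an RNA-binding repressor of let-7 microRNAs, 24.99 points in dCD), and on the low side Col4a4 in control and dKO and Usp32 (a deubiquitinase, -24.6 points in dCD). Lin28b had 52.5, 45.2 and 35.4% in naive control, dKO and dCD and 61.0, 52.6 and 60.4% in the EpiLC libraries, on 161 to 199 reads in the naive state.

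**Figure D5:**
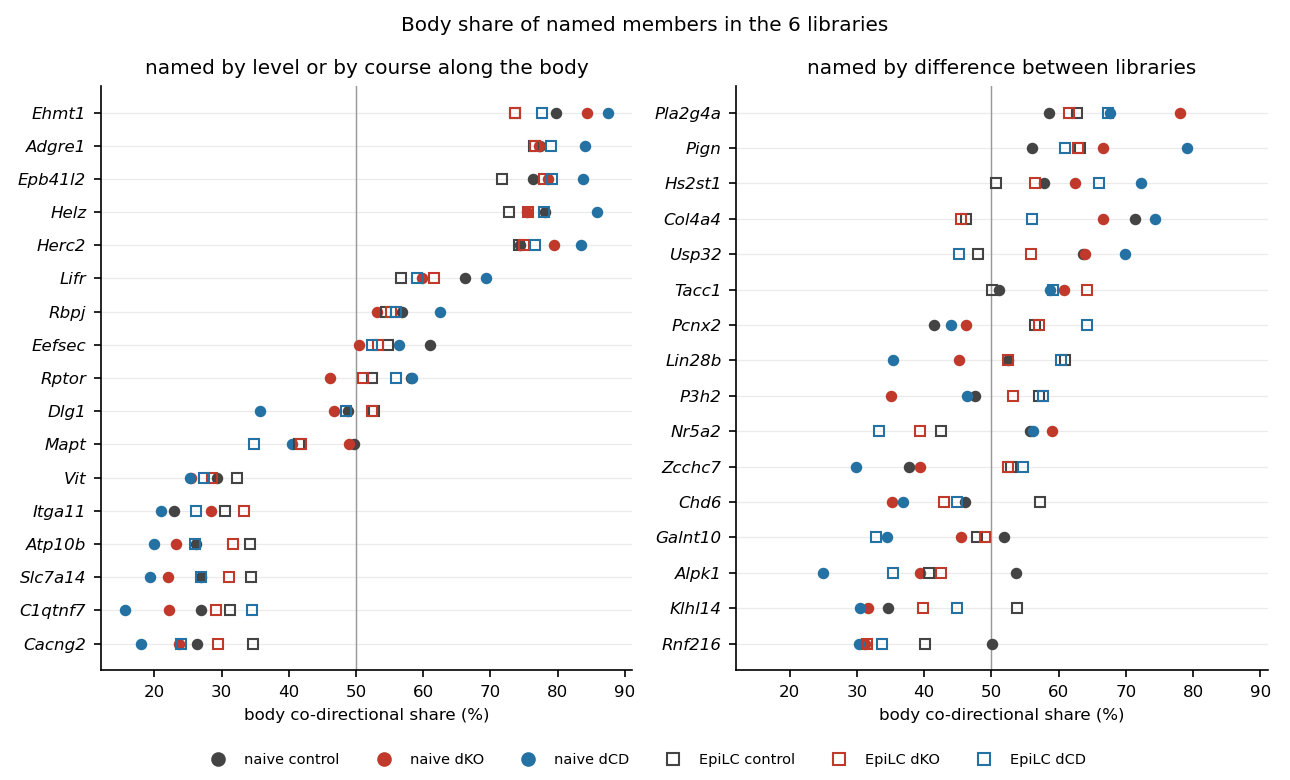
Body co-directional share (x axis, %) of named members (y axis) in the 6 libraries, circles for naive and open squares for EpiLC, coloured by genotype; the left panel holds genes named for the highest or lowest share or the largest turn along the body, the right panel genes named for a difference between libraries. The 5 highest genes shown lie above 70% and the 6 lowest below 35% in every library, with EpiLC values nearer to 50% in most of them.

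Among the lists, the median over the chromatin regulators of each gene's EpiLC minus naive difference was -5.34 points in control, -3.69 in dKO and -4.97 in dCD, beside -2.18, -1.16 and -1.93 points over all members. The list's median share itself went from 65.8 to 61.9% in control, from 63.7 to 60.7% in dKO and from 67.3 to 60.6% in dCD. Median differences below 0 in each genotype were also found for genome maintenance and cell cycle genes (-3.92, -2.25 and -5.68 points), solute carriers and transporters (-3.00, -1.42 and -3.52), the list of phosphodiesterases, protein kinases and calcium signalling (-3.43, -1.59 and -2.13) and transcription factors (-1.77, -1.71 and -3.60). Of the 34 chromatin regulators, 9 were higher in EpiLC control than in naive control. Cell adhesion and matrix genes had median differences of 0.81, 0.32 and -0.23 points. Chromatin regulators also had more T minus A than the other members, as given above, and the share of their shift that goes with it was not tested. Between mutants and control the lists' median differences lay between -2.18 and 4.54 points in naive ESCs and between -1.58 and 2.43 points in EpiLCs.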

How the data were processed

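The 6 deposited tracks hold Watson and Crick read density (coverage in reads per base) in 2725511 bins of 1 kb. According to the methods and the labels, the authors aligned the reads to mm10 with Bowtie2, binned them by strand with published OK-seq scripts and summed the 2 replicates of each condition without scaling. The submitters' processing notes also name FastQC, Trim Galore and Picard, without a role or version, and hg19 beside mm10. Whether duplicate reads were marked or removed is not given in the sources used here. Values were turned back into whole reads by multiplying with the bin size (largest deviation 0), and the position column was taken as the bin end, since the 74135 kilobases that hold only N then have 0 reads. The 126 bins over 10 times the median were left out.

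Bins were assigned to gene bodies by GENCODE M21 and oriented by strand. The T minus A term was a slope per library, fitted on the bins' deviation from their neighbours (10 bins each side, the nearest 2 left out). Shares have Wilson intervals, differences Newcombe intervals, both 95%, and gene calls used a size rule of 10 points among genes with at least 100 body reads in every library. Naive and EpiLC tracks were compared with a two-sided exact permutation test and, added after the values were seen, an exact sign-flip permutation of the differences within genotype. Named were the 6 members with the highest and the 6 with the lowest mean share, the 3 largest changes along the body each way, the extremes of each comparison and of each list, and the genes at the length limits. Of these, 1 of the highest members and 1 list are not reported here. Members and lists were chosen with earlier results of these data known. Work was done in Python 3.11.15 with numpy 2.4.6, pandas 2.3.3, scipy 1.17.1 and matplotlib 3.10.9, and the estimators were tested on simulated data. The simulation held a T minus A term of the form subtracted here, so it could not show whether true fork direction is subtracted too. Its tolerance was wider than the differences in body share between mutants and control. Alternatives changed the sequence term, the bins, the weighting, depth, neighbours, ends, chromosomes, length, amplitude, read minimum and size rule. Expression and replication timing were not analysed here.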

Additional observations from a re-analysis of the deposited data

Results flagged for a closer look

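The sign of dKO minus control differed between the states. Over the bodies of the members the difference in co-directional share was -0.513 points in naive ESCs and 0.449 points in EpiLCs. The decline from segments 1 to 3 to segments 8 to 10 differed likewise, by -0.864 points in naive ESCs and 1.77 points in EpiLCs. T−A-adjusted, the body differences were -0.259 and -0.021 points, of the same sign, and the differences of the decline -0.638 and 1.29 points, of opposite sign. With 1 track per condition, the difference between the states was not tested.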

How the results depend on the processing

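No paired analysis was possible because each track sums its 2 replicates, which leaves no replicate number to pair, and for the same reason no replicate could be left out. The states were compared within genotype, as given above. The body share, the decline and the step at the start kept their direction in all 6 libraries under every alternative run, with T−A-adjusted values as given above. Differences between libraries depended on the scale. T−A-adjusted, dKO minus control in EpiLCs turned to -0.021 points and EpiLC minus naive in dKO came to -0.027 points, an interval that holds 0. Among members with no other gene within 50 kb, naive dKO minus control was -0.108 points. With the deviation from 50% divided by amplitude, the differences were -1.20 (naive dCD minus control), 0.046 (EpiLC dKO), -0.246 (EpiLC dCD), 0.196 (EpiLC minus naive, dKO) and 0.284 points (dCD). Adjusted and divided by amplitude, an alternative chosen after seeing the data, they were -0.163 (naive dCD), -0.068 (EpiLC dKO), 0.025 (EpiLC dCD), and -0.126, 0.144 and 0.094 points for EpiLC minus naive in control, dKO and dCD. Leaving out no bin, equal weights for genes or strands, equal depth, body ends left out, 5 chromosomes left out and lengths of 100 to 200 kb changed no direction or call of these.

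Counts of members past the size rule, both directions together, followed the rule. Adjusted, 459, 284 and 358 members lay 10 points from 50% in naive control, EpiLC control and EpiLC dKO (723, 505 and 594 as counted), and 11 differed by 10 points in EpiLC dKO (17). At equal depth, by thinning every library to the smallest, the counts were 81 for EpiLC dKO minus control, 113 for EpiLC dCD (33) and 151 for EpiLC minus naive in dKO (95) (as counted in parentheses). A minimum of 200 reads gave 50 for naive dKO, 156 for naive dCD, 7 for EpiLC dKO and 112 for EpiLC minus naive in control. At 5 points, 1085, 925, 976 and 1055 members were past the rule in naive control, EpiLC control, dKO and dCD, and 470, 721, 234, 398, 670, 543 and 815 in the comparisons in the order of the text. At 20 points the counts were 196, 239, 428, 40, 85 and 172 in the libraries and 0, 8, 0, 0, 4, 1 and 13 in the comparisons. Over all genes tested, the percentages past the same rules in the 6 libraries and the 7 comparisons were 20.9 to 51.6% and 1.25 to 16.8% adjusted, 35.6 to 61.2% and 6.72 to 24.6% at equal depth, 29.4 to 57.7% and 0.455 to 17.4% with 200 reads, 63.9 to 81.1% and 18.7 to 57.9% at 5 points, and 4.03 to 30.9% and 0 to 1.4% at 20 points. The members' own percentages minus these, library by library, lay between -2.61 and 1.62 percentage points adjusted, at equal depth and at 5 and 20 points. The read minimum turned the sign: with 200 reads the members were 4.85 to 6.49 points higher in the libraries and 0.197 to 3.06 higher in the comparisons, and with 50 reads the differences were -3.41 to -0.831 and -9.89 to -2.73 points, against 37.6 to 64.5% and 3.91 to 27.2% of all genes tested. These are counts by size with no test.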
